A study of Homo sapiens with 10 samples.

Results

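The 8 untreated RNA-seq libraries of HAP1 clones were divided into sides A and B, which were chosen on the measured read counts and cut across the genotypes. Side A held WT clone 2, MUTYH KO clone 8, OGG1 KO clone 22 and DKO clone 14, and side B held WT clone 11, MUTYH KO clone 7, OGG1 KO clone 1 and DKO clone 4, so that 8 of the 10 libraries of the series were used and each side held 1 clone of every genotype. HAP1 is a near-haploid, adherent human line derived from the KBM-7 leukaemia line. MUTYH and OGG1 are DNA glycosylases of the repair of 8-oxoguanine, and the knockouts lacking 1 enzyme or both (double knockout, DKO) were made with CRISPR-Cas9. All 8 cultures were untreated. The other 2 libraries came from WT clones 2 and 11 at 24 h of 100 µM H2O2 and took no part in the division. A library stands for a single clone. The study's supplement lists both DKO clones as derived from a single OGG1 KO clone, so clones of those genotypes share ancestry. The labels name no batch, so any difference in culture, RNA extraction or sequencing between the sides cannot be told apart from the sides.

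Because the sides were found in these counts, no test between them was made, and the differences below describe the libraries. Values are CPM (counts in parts per 1e+06 of the library total over tested genes, with the totals scaled by TMM normalization factors). CPM of the treated libraries, and the mean log2 CPM set beside them, were scaled over all 10 libraries. Summed marker levels used unscaled totals. Differences are log2 values of side A over side B with genotype as a covariate. They are given with the standard error (SE) of the fit (4 libraries per side, 3 residual degrees of freedom). A gene was called where the log2 difference was beyond 1 and the side A clone lay on the same side of the side B clone in all 4 genotypes. With genotype as a covariate, leaving out either clone of a genotype takes that genotype out of the difference. Values given below without a clone therefore show the weight of its genotype pair, not of that clone alone.

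Proteins that are secreted or lie in membranes are made on ribosomes bound to the endoplasmic reticulum (ER), where chaperones fold them and enzymes add glycans. Ribosomal proteins, spliceosome proteins and the nuclear-encoded subunits of the respiratory chain are made from short, abundant mRNAs, mostly by free ribosomes or at the mitochondrial surface. Mitochondria transcribe their own genome as long precursors that are cut into mRNAs, rRNAs and tRNAs.

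These classes separated the sides. RNAs for ER chaperones, glycosylation enzymes, lysosomal and matrix proteins and transporters, and RNAs made in mitochondria, were lower on side A. RNAs for ribosomal proteins, nuclear-encoded respiratory subunits and spliceosomal Sm proteins were higher on side A. Of 16852 genes tested, 138 were called higher on side A (0.819%) and 298 lower (1.77%). A difference of any size in the same direction in all 4 genotypes was far more frequent, with 4262 genes higher on side A (25.3%) and 3891 lower (23.1%). Sides without any overlap of their libraries were frequent too, with 2707 of the 16852 genes higher on side A and 2414 lower. Since the sides were chosen on these counts, a lack of overlap below is a description only. The median over all tested genes was 0.01 and the quartiles were -0.27 and 0.26. Just outside the limit of the call lay MAB21L1 at 0.999 and PCDH18 at -0.995.

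Total counts ranged from 22225091 to 22674964 per library. On side A, 3.75% to 5.02% of counts fell on the mitochondrial genome, and on side B 5.14% to 7.46%. OGG1 RNA was at 1.22 CPM in OGG1 KO clone 1 and at 9.71 to 14.4 CPM in the other untreated libraries, OGG1 KO clone 22 with 11.3 CPM included, and MUTYH RNA was at 2.21 to 5.40 CPM throughout. A small deletion need not lower a transcript, so these levels neither bear out nor contradict the knockout labels of the other clones. The paper reports that targeted mass spectrometry of both proteins verified the knockouts in every clone. Of 23 haematopoietic markers, 13 had fewer than 10 counts in every untreated library and 5 had none, among them HBB, MPO and CD3E. Their summed level was 104 to 163 CPM on side A and 75.5 to 120 CPM on side B, with GATA2 at 45 to 54.3 CPM throughout. The 15 mesenchymal and adherent-cell markers, of which 12 were tested, summed to 470 to 919 CPM on side A and 856 to 1203 CPM on side B. Members went both ways, with 5 of the 12 lower on side A in all 4 genotypes and 3 higher. By mean CPM, CDH2 (99.1 against 193) and SPARC (160 against 283) were lower on side A. LGALS1 (34.0 against 22.1) and TWIST1 (11.2 against 6.92) were higher. The part of these markers in the differences below was not tested.

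**Figure D1:**
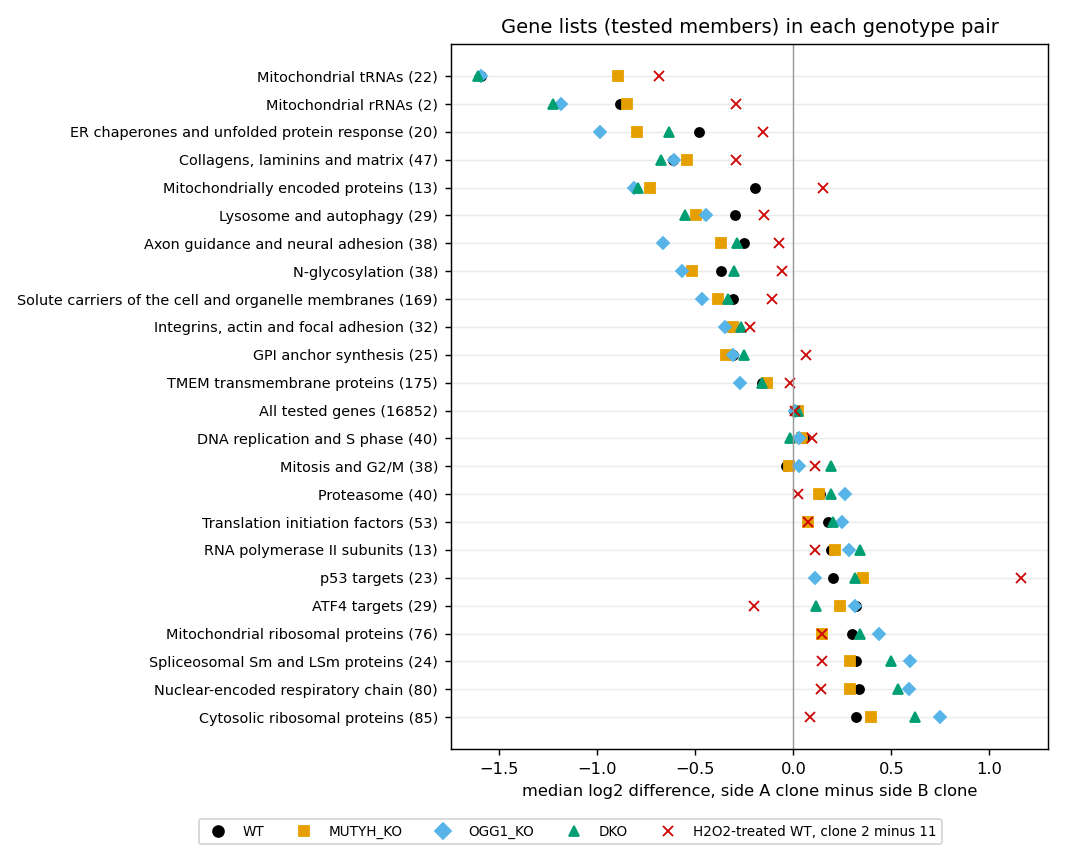
Median log2 difference of the tested members of each gene list (number of members in parentheses), side A clone minus side B clone, for the WT, MUTYH_KO, OGG1_KO and DKO pairs (filled symbols) and for the treated WT clones, clone 2 minus clone 11 (red crosses). For mitochondrial tRNAs, ER chaperones and matrix genes all 4 untreated pairs lie left of 0, for cytosolic ribosomal proteins all 4 lie right of 0, and the crosses of most lists lie closer to 0 than the filled symbols.

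In the list of ER chaperones and genes of the unfolded protein response, all 20 tested members lay below 0, 16 were lower on side A in all 4 genotypes (background 23.1%), and the list median was -0.71 against 0.01 for all genes. By genotype the median was -0.48 in WT, -0.80 in MUTYH KO, -0.99 in OGG1 KO and -0.64 in DKO. HSPA5 (BiP), the main Hsp70 chaperone of the ER, was the only member past the limit of 1. It measured 583, 503, 447 and 508 CPM in the side A clones of WT, MUTYH KO, OGG1 KO and DKO and 935, 1162, 1146 and 986 CPM in the side B clones in the same order. The sides did not overlap, and the log2 difference was -1.05 ± 0.12 (SE). CALR, a lectin chaperone, was at 761, 772, 635 and 693 CPM on side A and 1234, 1552, 1492 and 1250 CPM on side B, a log2 difference of -0.95 ± 0.10. HSP90B1 (GRP94), the ER form of Hsp90, was nearly constant within side A, at 950, 881, 946 and 950 CPM against 1575, 1818, 1925 and 1735 CPM, with a log2 difference of -0.92 ± 0.08. CANX, the membrane-bound partner of calreticulin, was at 1282, 1054, 825 and 1093 CPM on side A and 1691, 1895, 1995 and 1718 CPM on side B. For CANX too the sides did not overlap (log2 difference -0.79 ± 0.14). Other members differed to varying degrees. SYVN1 and SEL1L, of ER-associated degradation, differed by -0.72 and -0.62, whereas EDEM1 and HERPUD1 of the same process differed by -0.09 ± 0.08 and -0.16 ± 0.09. The cofactor SDF2L1 was at -0.17 ± 0.12 and the transcription factor XBP1 at -0.31 ± 0.11. These last 4 genes had overlapping sides.

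The promoters of these chaperones are shown because they share a known control sequence, the ER stress element, which ATF6 binds together with NF-Y. The motif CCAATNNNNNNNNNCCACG was searched on both strands in RefSeq promoters (GRCh38.p14, from 250 bases before to 50 after the start). It was present in 22 of 27305 promoters (0.0806%), in 14 of 11197 promoters of tested genes (0.125%) and in 6 of the 19 ER list promoters found (31.6%), those of HSPA5, CALR, HSP90B1, CANX, CRELD2 and XBP1. XBP1 holds it with a log2 difference of -0.31, while HYOU1 and PDIA4 differed by -0.92 and -0.89 without it in this window. The motif is a property of the letters and was not measured as bound. The 250 bases before the start are given 5′ to 3′ on the strand of the gene, with both ends of the motif in capitals (CGTGG and ATTGG where it lies on the other strand). HSP90B1 holds it 2 times and the others 1 time each.
HSPA5, chr9:125241344-125241593, minus strand: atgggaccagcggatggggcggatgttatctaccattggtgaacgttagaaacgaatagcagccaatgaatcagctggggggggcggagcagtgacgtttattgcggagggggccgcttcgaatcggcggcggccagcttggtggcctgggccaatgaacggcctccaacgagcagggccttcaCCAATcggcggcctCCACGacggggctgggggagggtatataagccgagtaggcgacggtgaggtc
CALR, chr19:12938359-12938608, plus strand: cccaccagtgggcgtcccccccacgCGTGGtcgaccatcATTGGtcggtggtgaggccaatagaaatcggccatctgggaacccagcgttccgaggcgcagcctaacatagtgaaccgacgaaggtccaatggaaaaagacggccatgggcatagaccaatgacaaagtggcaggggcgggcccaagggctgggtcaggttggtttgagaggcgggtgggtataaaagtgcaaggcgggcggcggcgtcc
HSP90B1, chr12:103930160-103930409, plus strand: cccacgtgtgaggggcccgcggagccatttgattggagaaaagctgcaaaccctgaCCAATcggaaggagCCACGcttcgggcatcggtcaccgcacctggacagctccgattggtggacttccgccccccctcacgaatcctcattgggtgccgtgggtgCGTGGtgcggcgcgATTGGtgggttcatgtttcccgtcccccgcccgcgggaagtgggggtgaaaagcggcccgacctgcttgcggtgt
CANX, chr5:179698679-179698928, plus strand: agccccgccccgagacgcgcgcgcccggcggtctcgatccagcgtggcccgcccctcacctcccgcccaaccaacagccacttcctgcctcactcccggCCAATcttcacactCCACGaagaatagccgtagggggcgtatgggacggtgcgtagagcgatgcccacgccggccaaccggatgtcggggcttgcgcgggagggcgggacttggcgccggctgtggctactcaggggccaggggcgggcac

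Genes that act before and after folding followed in part. Of 38 N-glycosylation genes, 30 were lower on side A in all 4 genotypes and 1 was higher, with a list median of -0.43. ALG1, which adds the first mannose to the lipid-linked glycan, was called, at 24.8, 24.0, 17.7 and 21.9 CPM on side A and 38.2, 55.1, 45.6 and 44.3 CPM on side B (log2 difference -1.05 ± 0.13). The sides were well apart. STT3A, a catalytic subunit of the oligosaccharyltransferase, differed by -0.84 ± 0.09 and GANAB, a glucosidase subunit, by -0.79 ± 0.09. OST4, a very small subunit of the same transferase, was the exception, higher on side A by 0.46 ± 0.10 and without overlap. For 25 GPI anchor genes the median was -0.33, with 16 lower and 3 higher in all genotypes, and PIGG differed by -0.80 ± 0.09.

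Within the machines that move proteins across or between membranes, subunits in the membrane were mostly lower on side A. Soluble subunits were more often higher than lower, by small medians. The small tail-anchored membrane subunits SEC61B and SEC61G broke this order. Of all tested genes, 25.3% were higher and 23.1% lower in all 4 genotypes. The grouping of subunits was made after the values were seen, and it was not adjusted for transcript length or GC content. Protein entry into the ER as a whole had 12 of 25 genes lower in all 4 genotypes and 5 higher, with a median of -0.27 (-0.15 without MUTYH KO clone 7 and -0.17 without clone 8). All 6 tested genes for the SRP receptor and the multi-pass channel proteins SEC61A1, SEC61A2, SEC62 and SEC63 were lower on side A in all 4 genotypes (median -0.60), whereas all 6 proteins of the soluble signal recognition particle lay above 0 (median 0.20), of which 3 were higher in all genotypes. The remaining 11 genes, for translocon-associated, signal peptidase and TRAM proteins, had a median of -0.36, with 6 lower in all 4 genotypes and none higher. SEC61A1, the pore of the ER translocon, was at 309, 302, 218 and 282 CPM on side A and 489, 612, 536 and 504 CPM on side B, a log2 difference of -0.95 ± 0.11. SEC61B and SEC61G, the small tail-anchored subunits of the same channel, went the other way. SEC61B was at 52.2, 49.4, 55 and 48.7 CPM on side A against 33.5, 36.9, 37.4 and 36.8 CPM on side B (0.51 ± 0.08), and SEC61G differed by 0.71 ± 0.14. None of these 3 genes had overlapping sides. SRPRB, the membrane subunit of the SRP receptor, differed by -0.99 ± 0.10 and SRP9, a protein of the particle, by 0.58 ± 0.08.

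The vacuolar ATPase, the proton pump of lysosomes, showed a similar division. All 9 tested genes of its membrane sector and accessory proteins lay below 0 (median -0.49, with 8 lower in all 4 genotypes), and all 11 of its cytosolic sector lay above 0 (median 0.10, with 4 higher in all 4 genotypes). These sections did not hold every tested gene of the list. The whole list of 21 tested genes, with 10 below 0 and 11 above, had a median of 0.02, which fell below 0 in some settings. ATP6AP1, an accessory membrane protein, was at 216, 229, 202 and 196 CPM on side A and 377, 399, 404 and 359 CPM on side B (-0.87 ± 0.07), while ATP6V1G1 of the cytosolic sector differed by 0.51 ± 0.08. Transport between ER and Golgi as a whole had 16 of 32 genes lower and 8 higher (median -0.14). Of its 14 cargo receptors and p24 proteins, 13 were lower on side A in all 4 genotypes (median -0.39). The 18 coat proteins, which assemble from the cytosol, had a median of 0.09 with 8 higher and 3 lower. The medians of the coat proteins and of the cytosolic ATPase sector were near the 0.10 of all tested transcripts of 1000 to 2000 bases. SURF4, a cargo receptor, differed by -0.68 ± 0.07 and COPZ1, a coatomer subunit, by 0.49 ± 0.08.

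Lysosomal and surface proteins, the products of this route, were also lower on side A. Of 29 lysosome and autophagy genes, 19 were lower in all 4 genotypes and 3 higher, with a median of -0.51. NEU1, the lysosomal sialidase, was called, at 39.2, 45.5, 38.2 and 43.4 CPM on side A and 73.0, 116, 96.8 and 90.5 CPM on side B (-1.16 ± 0.09). CLCN7, a chloride transporter of lysosomes, differed by -0.99 ± 0.07, LAMP1, the main lysosomal membrane glycoprotein, by -0.90 ± 0.08 and CTSD, an aspartic protease, by -0.86 ± 0.07. Each had separate sides. Of the 3 members higher in all genotypes, MAP1LC3B, a cytosolic autophagy protein, differed by 0.32. Solute carriers of the cell and organelle membranes, as a family of 169 tested genes, had 86 members lower in all 4 genotypes and 7 higher (median -0.36). The 43 carriers of the mitochondrial inner membrane had 14 higher (32.6%, with 25.3% of all genes) and 4 lower, and their median of 0.12 was 0.064 without WT clone 11, 0.066 without WT clone 2 and 0.051 with the length and GC class subtracted. The 175 TMEM genes, named for transmembrane segments, had 69 lower and 29 higher (median -0.20).

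**Figure D2:**
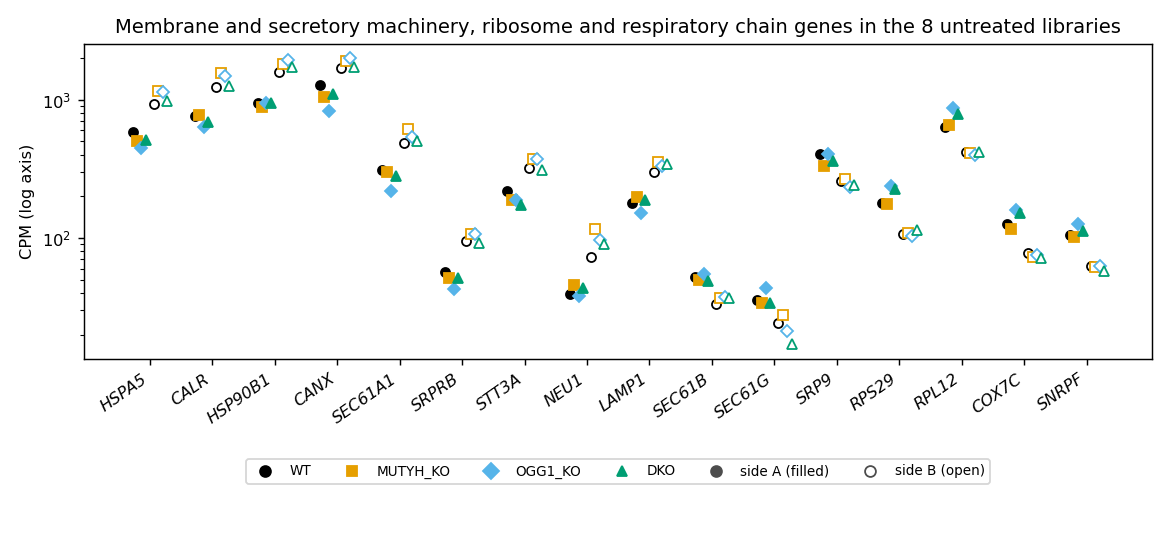
CPM (log axis) of 16 genes of the ER, lysosome, ribosome, respiratory chain and spliceosome in each untreated library, with side A clones filled and side B clones open. From HSPA5 to LAMP1 the filled symbols lie below the open ones in each genotype, and from SEC61B to SNRPF above them.

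Matrix genes were lower on side A in every genotype pair, with list medians of -0.61 in WT, -0.54 in MUTYH KO, -0.61 in OGG1 KO and -0.68 in DKO. Of 47 collagen, laminin and other matrix genes, 29 were lower on side A in all 4 genotypes and none higher, 5 were called lower (background 1.77%), and the median over the sides was -0.63. Single members varied more than the list. SERPINH1 (HSP47), the collagen chaperone of the ER, was at 157, 218, 285 and 293 CPM on side A and 418, 638, 568 and 638 CPM on side B, a log2 difference of -1.27 ± 0.10. LOX, which cross-links collagen, was at 16.5, 15.7, 29.1 and 33.9 CPM against 37.0, 52.1, 79.0 and 46.2 CPM (-1.19 ± 0.20). The sides of both genes were apart. THBS1, a matricellular glycoprotein, ranged from 0.890 CPM in WT clone 2 to 30.8 CPM on side A and from 27.1 to 94.9 CPM on side B (-1.77 ± 0.63), and its sides overlapped. Without WT clone 2 or WT clone 11 its difference was -1.13. SPARC, another matricellular protein, was likewise at 28.4 CPM in WT clone 2 and at 168 to 242 CPM in the other side A clones, against 180 to 422 CPM on side B. POSTN (-1.86 ± 0.34) and COL3A1 (-2.56 ± 1.04) were low throughout, COL3A1 at 0.0444 to 0.800 CPM on side A and 0.271 to 6.43 CPM on side B. For COL3A1 the difference rested on few counts.

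Adhesion genes and targets of the mechanosensitive coactivator YAP differed in fewer members. Of 32 integrin, actin and focal adhesion genes, 16 were lower on side A in all 4 genotypes and 2 were higher (median -0.33), with FLNA, an actin cross-linker, at -0.73 ± 0.10 and ITGAV at -0.64 ± 0.07. TAGLN2, an actin-binding protein, was higher by 0.59 ± 0.12. The 21 YAP and TEAD targets had a median of -0.09, and 6 (28.6%) were lower in all 4 genotypes, near the 23.1% of all genes. That median ranged from -0.26 to -0.031 when libraries were left out. CCN2 (CTGF), a classical target, was among the largest differences of all: 2.80, 10.3, 6.67 and 10.8 CPM on side A and 25.9, 38.5, 47.3 and 38.11 CPM on side B, a log2 difference of -2.40 ± 0.24 with no overlap. CCN1 (CYR61) was called as well, but its sides overlapped, with 26.6 to 229 CPM on side A and 189 to 361 CPM on side B. TEAD1 itself differed by 0.07.

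Genes of axon guidance and neural adhesion had 15 of 38 members lower on side A in all 4 genotypes and 1 higher (median -0.48). EPHA7, an ephrin receptor, was at 8.10, 10.5, 24.4 and 19 CPM on side A and 42, 63.2, 74.5 and 21 CPM on side B (-1.69 ± 0.38). Its sides overlapped, since DKO clone 4 lay below OGG1 KO clone 22. SLIT2, a secreted guidance ligand, was at 24.5 to 32.7 CPM on side A and 46.9 to 74.5 CPM on side B (-1.07 ± 0.18), and CDH2 (N-cadherin) differed by -0.96 ± 0.08. In the clustered protocadherins, 3 of 21 genes were called lower (1.77% of all genes), PCDHGA10, PCDHGA11 and PCDHGC3, by -1.11, -1.06 and -1.24. The list median was -1.13 in the OGG1 KO pair but -0.12 in WT, -0.05 in MUTYH KO and -0.16 in DKO, and 23.8% of the list was lower in all 4 genotypes, close to the 23.1% of all genes. These genes share exons within a cluster, and the handling of shared reads was not stated in the sources used here.

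RNA made in mitochondria showed the largest list median. Of 22 mitochondrial tRNAs, 21 were lower on side A in all 4 genotypes and 17 were called (median -1.42). By genotype the medians were -1.59 in WT, -0.90 in MUTYH KO, -1.60 in OGG1 KO and -1.61 in DKO. Some called members had few counts, such as MT-TF at a mean of 0.244 CPM on side A and 0.759 CPM on side B. The most abundant tRNAs differed less, MT-TC by -1.12, MT-TP by -0.50, MT-TL1 by -0.92 and MT-TY by -0.96. MT-TV, the next in level, differed by -2.01. The paper states that total RNA was sequenced and gives no size selection. The tRNA counts may hold reads of uncut precursors rather than mature tRNAs. The neighbouring genes of the heavy-strand transcript, for histidine, serine and leucine tRNAs, are shown because they lie end to end and include both of the largest mitochondrial differences among genes above 5 CPM on side B (GRCh38, 5′ to 3′, with no part capitalised).
MT-TH, chrM:12138-12206, plus strand: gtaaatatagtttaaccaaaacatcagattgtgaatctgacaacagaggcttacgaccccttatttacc
MT-TS2, chrM:12207-12265, plus strand: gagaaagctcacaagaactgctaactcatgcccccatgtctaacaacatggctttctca
MT-TL2, chrM:12266-12336, plus strand: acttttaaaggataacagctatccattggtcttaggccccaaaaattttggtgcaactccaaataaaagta
MT-TS2 was at 1.91, 3.78, 2.67 and 3.05 CPM on side A and 10.8, 11.7, 11.9 and 13.5 CPM on side B (log2 difference -2.10 ± 0.18). MT-TH was at 2.49, 5.33, 3.87 and 4.29 CPM against 14.6, 13.2, 17.5 and 20.3 CPM (-2.06 ± 0.21), and MT-TL2 at 2.0 to 2.84 CPM against 4.88 to 9.71 CPM (-1.52 ± 0.21). No side A library of these 3 genes reached a side B library.

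The other mitochondrial RNAs differed less than the median of the tRNA list, as did its most abundant members. The rRNAs MT-RNR1 and MT-RNR2 were both called, with log2 differences of -1.06 ± 0.09 and -1.02 ± 0.16. MT-RNR1 was at 540, 710, 908 and 732 CPM on side A and 1292, 1335, 1722 and 1600 CPM on side B. Of the 13 protein-coding genes, 8 were lower in all 4 genotypes (median -0.60), and none was called. MT-ND2, a complex I subunit, was at 2633, 2866, 2260 and 3134 CPM on side A and 4350, 5137, 5637 and 6347 CPM on side B (-0.98 ± 0.11), without overlap. MT-CO1, the catalytic subunit of cytochrome oxidase, was at 12693, 6157, 10154 and 7183 CPM against 7573, 11392, 9474 and 11943 CPM, and its sides overlapped (-0.20 ± 0.27). In the WT pair the median of the 13 genes was -0.20, compared with -0.73 to -0.81 in the knockout pairs.

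**Figure D3:**
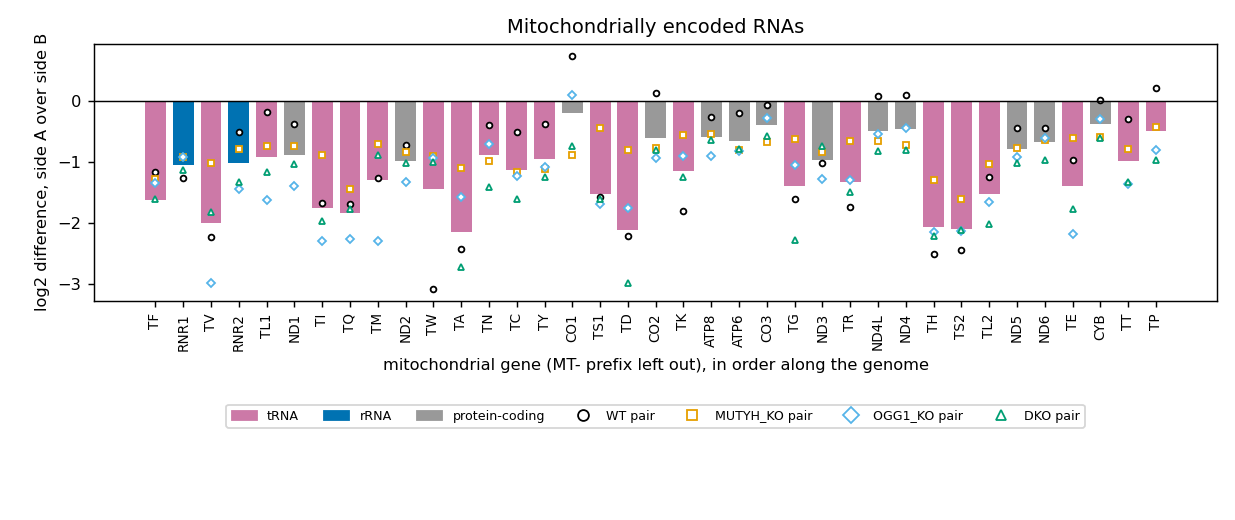
Log2 difference of side A over side B (bars) for mitochondrial genes in their order along the genome, coloured by RNA class, with the difference of each genotype pair as open symbols. The tRNA bars reach -2.15, for MT-TA with means of only 0.377 CPM on side A and 1.71 CPM on side B. The protein-coding bars lie between -0.98 and -0.20. All bars lie below 0.

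The nuclear-encoded partners of these RNAs lay on the other side. Of 80 tested nuclear genes of the respiratory chain, 66 were higher on side A in all 4 genotypes and 1 was lower (median 0.44; background 25.3% higher). None of the 80 was called. COX7C, a small cytochrome oxidase subunit, was at 126, 116, 160 and 152 CPM on side A and 78.0, 72.9, 75.5 and 72 CPM on side B (0.88 ± 0.09), and NDUFB4, of complex I, at 82.7, 84.7, 90.1 and 85.7 CPM against 50.2, 49.8, 53.5 and 49.1 CPM (0.76 ± 0.06). Neither gene overlapped between the sides. COX6A1 was the member lower in all 4 genotypes, by -0.17 ± 0.07. Mitochondrial ribosomal proteins followed with 53 of 76 genes higher and 1 lower (median 0.30).

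Cytosolic ribosomal proteins were higher on side A almost without exception. Of 85 tested, 80 were higher in all 4 genotypes and 2 were lower, and the median was 0.54, with 0.32 in WT, 0.39 in MUTYH KO, 0.75 in OGG1 KO and 0.62 in DKO. Together they took 5.70% to 7.28% of all counts on side A (6.51% ± 0.713, SD, n = 4) and 4.43% to 4.67% on side B (4.59% ± 0.115, SD, n = 4). RPS29 was at 179, 177, 237 and 224 CPM on side A and 107, 109, 104 and 115 CPM on side B (0.90 ± 0.09), and RPL12 at 631, 656, 875 and 795 CPM against 419, 409, 400 and 419 CPM (0.83 ± 0.10). For both genes the side B libraries were nearly alike and the side A libraries varied. RPL36A, with a log2 difference of -0.56 ± 0.09, was among the members lower in all genotypes. Ribosomal protein genes have many pseudogene copies that can share reads.

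Genes of the spliceosomal Sm and LSm proteins, RNA polymerase II, translation initiation and the proteasome were also more often higher on side A than lower. Of 24 spliceosomal Sm and LSm proteins, 21 were higher in all 4 genotypes (median 0.43), with SNRPF at 105, 102, 127 and 112 CPM against 62.4, 61.3, 62.4 and 58.1 CPM (0.86 ± 0.07). SNRPD3 was the member lower in all genotypes (-0.26). RNA polymerase II subunits had 10 of 13 genes higher and none lower (median 0.26), although POLR2A, the large catalytic subunit, was at -0.11. Translation initiation factors had 30 of 53 higher and 6 lower (median 0.20). EIF4EBP1, a repressor of cap-dependent initiation, was higher by 0.82 ± 0.09, while EIF4G1, the long scaffold of the cap complex, differed by -0.39 ± 0.09. Proteasome genes had 24 of 40 higher and 3 lower (median 0.19). With the median of each transcript length and GC class subtracted, initiation factors were at 0.071 and the proteasome at 0.014.

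Transcript length and GC content moved with these differences. The median difference was 0.19 for genes with transcripts under 1000 bases and -0.07 at 8000 bases or more, and 0.14 below 40% GC and -0.14 at 60% GC or more. After the median of each length and GC class was subtracted, ribosomal proteins stood at 0.35, the respiratory chain at 0.26, ER chaperones at -0.77, matrix genes at -0.51 and the proteasome at 0.01. The GC order held in all 4 pairs, from 0.08 in WT to 0.20 in DKO in the lowest class and from -0.10 to -0.20 in the highest. For length, the MUTYH KO pair had a median of 0.06 in the longest class, where the WT and OGG1 KO pairs had -0.12 and -0.17. The part of length, GC content and RNA quality in the sides was not tested.

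Several lists for stress and growth differed little between the sides. The medians were 0.01 for 40 genes of DNA replication, 0.05 for 38 mitosis genes, -0.02 for cytosolic heat shock chaperones, -0.02 for NRF2 targets and -0.04 for cholesterol synthesis, the last with 0.30 in WT and -0.21 in MUTYH KO. Among replication genes, MCM2, a helicase subunit, differed by -0.18 ± 0.07 and PCNA, the polymerase clamp, by 0.29 ± 0.06. Targets of ATF4, which drives amino acid and stress genes, had 15 of 29 members higher on side A in all 4 genotypes and 5 lower (median 0.29, but 0.15 without WT clone 2 or WT clone 11). DDIT4 (REDD1), an inhibitor of mTORC1, was the called member, at 25.7, 11.2, 19.1 and 17.7 CPM on side A and 5.15, 4.21, 4.54 and 10.1 CPM on side B (1.65 ± 0.25). PSAT1, of serine synthesis, was higher by 0.61 ± 0.09, while SLC3A2, the glycoprotein chain of amino acid exchangers, was lower by -0.73 ± 0.11. Of 23 p53 targets, 11 were higher and 2 lower (median 0.24). CDKN1A (p21), an inhibitor of the cell cycle, was called, at 7.87, 19.3, 8.54 and 17.5 CPM on side A and 3.95, 3.70, 3.90 and 7.41 CPM on side B (1.43 ± 0.24). Its sides were separate by a small margin.

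The single genes with the largest differences varied in how far they rested on 1 or a few clones. UTF1, a chromatin factor of pluripotent cells, was at 15.6, 10.9, 11.6 and 9.51 CPM on side A and 3.51, 1.67, 3.72 and 6.59 CPM on side B (1.73 ± 0.33). BEX5 (1.62 ± 0.26), HOXB9 (1.61 ± 0.33), the growth factor BMP4 (1.55 ± 0.34) and BTNL9 (1.45 ± 0.37) likewise had no overlap. The transcription factor FOXF1 (1.48 ± 0.39) had none either, but its pair difference was 3.27 in OGG1 KO and 0.72 to 1.14 in the others, and without OGG1 KO clone 1 or clone 22 it lost its call, at 0.99 and 0.97. HOXB9 was the called member of 32 HOX genes on the higher side and HOXD3 on the lower, at 1.61 and -1.04. FBXO17 had the largest positive difference, 2.96 ± 1.01, yet only MUTYH KO clone 8 was high, with 450 counts, while the other libraries lay between 0.0903 and 1.07 CPM, and the difference was 1.26 without that library, 1.27 without MUTYH KO clone 7, 4.65 without WT clone 2 and 4.64 without WT clone 11. CGAS, the cytosolic DNA sensor, was at 11.9 and 10.8 CPM in WT clones 2 and 11, close to each other, and at 7.02, 5.20 and 8.36 CPM against 0.648, 0.454 and 0.632 CPM in the knockouts. ADRA1A (1.78 ± 0.72), LINC01694 (1.73 ± 0.49), FAM20C (1.66 ± 0.36), GALNT13 (1.57 ± 0.38) and GLP1R (1.45 ± 0.32) had overlapping sides, and ADRA1A lost its call without MUTYH KO clone 7 (0.95) or clone 8 (0.93).

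On the lower side, SPARCL1, a secreted matricellular protein, was at 0.489, 1.42, 1.16 and 1.86 CPM on side A and 4.75, 10.4, 2.63 and 8.08 CPM on side B (-2.34 ± 0.34). CAPN6, a calpain without protease activity, was at 1.16, 1.02, 2.09 and 4.47 CPM against 7.28, 14.3, 4.72 and 7.23 CPM (-2.01 ± 0.50). EMP1, a membrane protein of epithelia, was at 0.578 to 6.0 CPM on side A and 6.93 to 42.1 CPM on side B (-2.13 ± 0.71). These 3 genes did not overlap between the sides, EMP1 and CAPN6 narrowly. APOE, a lipid carrier, was at 5.69, 9.11, 26.9 and 36.7 CPM against 15.1, 82.1, 113 and 74.5 CPM (-1.91 ± 0.32), and its sides overlapped, since WT clone 11 lay below OGG1 KO clone 22 and DKO clone 14. CLU (clusterin), a secreted chaperone, was at 54.4 to 116 CPM against 162 to 229 CPM (-1.27 ± 0.12). TMTC1 (-2.42 ± 0.69), CTSF (-2.22 ± 0.72) and PI15 (-1.79 ± 0.66) varied widely within the sides. Without OGG1 KO clone 1 or clone 22, TMTC1 was at -1.5 and -1.51 and CTSF at -1.28 and -1.30, and without MUTYH KO clone 7 or clone 8, PI15 was at -1.14 and -1.13 and EMP1 at -1.38 and -1.36. CTSF, a lysosomal cysteine protease, was at 1.87, 0.884 and 2.12 CPM in OGG1 KO clone 22 and DKO clones 14 and 4. In the other 5 libraries CTSF was at 30.8 to 110 CPM. TMTC1 was lowest in the same libraries, at 0.356, 0.221 and 0.677 CPM, with 1.25 CPM or more elsewhere. These low libraries lie on both sides. The supplement gives the OGG1 KO parent of both DKO clones a product number ending in 22, but no label names the parent. The part of lineage was not tested. MT-TV and MT-TQ, both mitochondrial tRNAs, differed by -2.01 ± 0.30 and -1.83 ± 0.19 and completed the 15 genes.

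**Figure D4:**
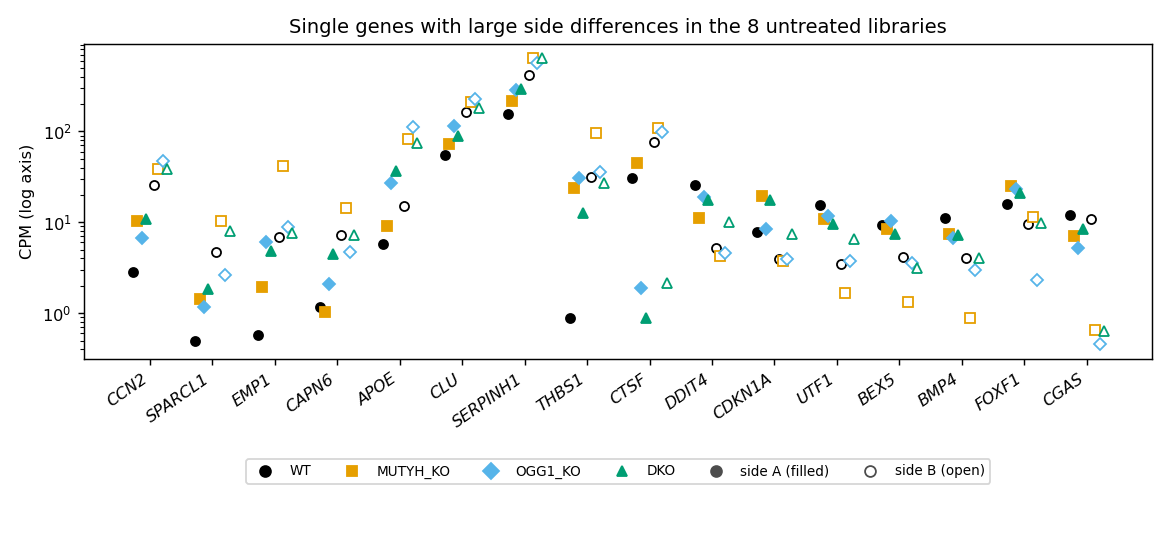
CPM (log axis) of 16 single genes in each untreated library, side A clones filled and side B clones open, by genotype. The sides of CCN2, CLU, SERPINH1 and DDIT4 do not overlap, whereas CGAS in WT clone 11 (10.8 CPM) lies among the side A clones and CTSF is low in 3 libraries of both sides.

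The treated WT libraries, which the division did not use, gave a reading in other cultures of clones 2 and 11. For this purpose genes were called in the 6 knockout libraries alone, with the same direction in all 3 knockout genotypes. This gave 196 genes higher on side A (1.17% of 16774) and 458 lower (2.73%). The untreated WT pair had itself been used to set the sides, so its values only describe that choice: 148 of the 196 (75.5%) were higher in clone 2 than in clone 11 and 87 of the 458 (19%), with medians of 0.54 and -0.61. In the treated pair it was 107 of the 196 (54.6%) and 220 of the 458 (48.0%), with medians of 0.08 and -0.03, beside 50.7% of all genes. The mean log2 CPM of the 196 genes minus that of the 458 was 0.08 in WT clone 2 and -1.03 in WT clone 11 when untreated, and -0.23 and -0.46 when treated. The other side A clones lay between 0.65 and 0.82 and the other side B clones between -1.48 and -1.99. On this mean the treated clones lay between the sides and close to each other. Across genes, the side difference of the knockouts correlated with clone 2 minus clone 11 at r = 0.438 in the untreated pair and r = 0.0738 in the treated pair (16774 genes, which are not independent). Gene by gene, however, the difference between the 2 WT clones was partly kept after treatment. Clone 2 minus clone 11 correlated between the treated and untreated pairs at r = 0.585 over all 16774 genes. Over the 654 genes called in the knockouts it was r = 0.692. Treatment and culture cannot be told apart here.

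**Figure D5:**
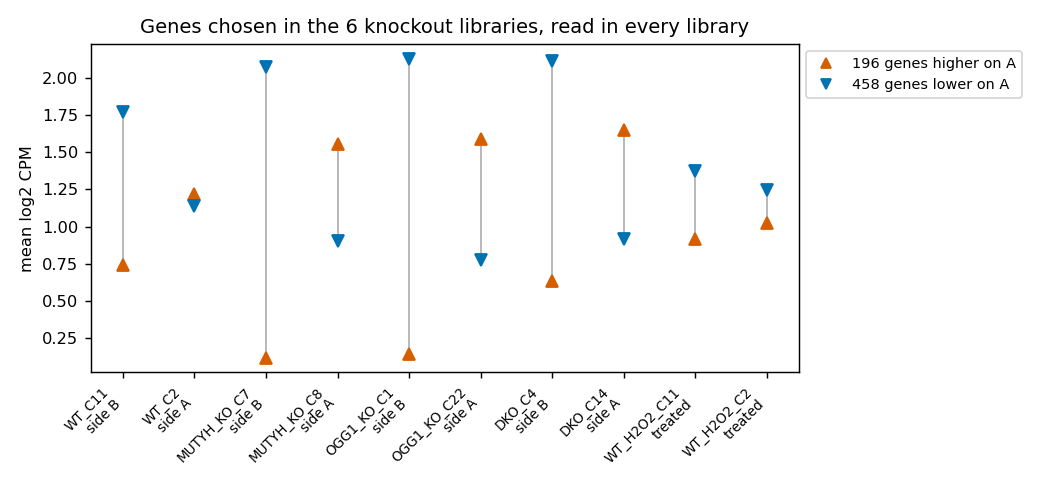
Mean log2 CPM, in each of the 10 libraries, of the 196 genes called higher (upward triangles) and the 458 called lower (downward triangles) on side A in the 6 knockout libraries, with a line joining the pair. The lines are long in side B, reversed in the knockout clones of side A, and short in both treated WT libraries.

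By list, the difference between the treated clones was smaller than in the untreated WT pair for most, but not all, of the lists described. Clone 2 minus clone 11 was -0.15 for ER chaperones, 0.09 for ribosomal proteins, -0.06 for N-glycosylation and 0.15 for mitochondrially encoded proteins. Matrix genes were at -0.30, beside -0.61 in the untreated WT pair, and integrin, actin and focal adhesion genes at -0.22, beside -0.33. HSPA5 was at 619 CPM in treated clone 2 and 728 CPM in treated clone 11, and SEC61A1 at 400 and 426 CPM, both between the sides. Some single genes and the mitochondrial tRNAs (median -0.69) kept a gap. CCN2 was at 12.2 and 24.0 CPM in treated clones 2 and 11, SPARCL1 at 1.18 and 8.85 CPM, CAPN6 at 0.455 and 7.58 CPM and MT-TS2 at 1.96 and 8.68 CPM. DDIT4, at 16.2 and 17.4 CPM, and HOXB9, at 9.74 and 13.7 CPM, showed no such gap in the direction of the sides. CDKN1A was at 195 and 18.8 CPM and the p53 targets had a median of 1.16 in the treated pair, larger than between the untreated sides. Each treated value is a single library, so these gaps have no replicate.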

How the data were processed

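RNA-seq was measured in 8 untreated and 2 H2O2-treated HAP1 libraries. Per the labels and methods, the authors aligned reads with HISAT2 2.2.1 (GRCh38.p13) and counted them per gene (Ensembl annotation release 103), and deposited whole-number counts without normalization. The strand setting was not given in the sources used here, so reads of overlapping or antisense genes cannot be separated. No column of values was left unmapped (0). Counts were fitted in R 4.3.3 with edgeR 4.0.16 (quasi-likelihood, TMM factors, filterByExpr by side, genotype as covariate) and checked on simulated data. No p-value was used. Log2 values of single pairs used a prior count of 2. Symbols were matched to GENCODE v44 (14640 of 16852 tested genes) for length, GC content and biotype, and promoters came from RefSeq (GRCh38.p14). Library totals were 22225091 to 22674964 counts, and without molecular identifiers counting errors cover counting only.

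The sides, members and lists were chosen with earlier results of these data known, and 15 of the lists, as well as the sections of membrane machines, were chosen after the values were seen. Named genes were, per direction, the 15 called genes with the largest difference among those with at least 5 CPM on the higher side and a known symbol, and per list the called members (up to 6 a direction) and the least changed members at 10 CPM or more (up to 2). A few genes that these rules pick are not reported here. Other members named as examples were chosen after their values were seen. Alternatives covered size factors, filters, prior count, covariate, fold limit, DESeq2 1.42.0, leaving out libraries, mitochondrial totals, and transcript length with GC content.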

Additional observations from a re-analysis of the deposited data

Results flagged for a closer look

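In groups of 4 libraries, the highest or lowest value was compared with the rest by its gap over the range (Dixon's test), which chance alone passes in about 1 in 20 groups. Of 122 groups examined, 9 passed. Values are log2 CPM, for lists the mean over members. CGAS in WT clone 11 was at 3.44, above the other side B clones at -0.88 to -0.44. FOXF1 in OGG1 KO clone 1 was at 1.26, below 3.29 to 3.53, and OGG1 in the same library at 0.39, below 3.29 to 3.86. GLP1R in DKO clone 4 was at 2.69, above 1.03 to 1.09, and CTSF in that library at 1.15, below 6.24 to 6.78. EMP1 in MUTYH KO clone 7 was at 5.40, above 2.81 to 3.17. In WT clone 2, integrin, actin and focal adhesion genes were at 6.0, below 6.24 to 6.26 in the other side A clones, and YAP and TEAD targets at 3.91, below 4.70 to 4.75. Spliceosomal Sm and LSm proteins were at 6.47 in OGG1 KO clone 22, above 6.38 to 6.39. Causes were not tested.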

How the results depend on the processing

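All 567 values of named genes under the alternatives, and 541 of 575 list medians, moved by less than the spread between libraries or pairs. For genes, leaving out a clone removes its genotype pair, which can hardly move the difference by more than the spread between pairs. FBXO17 counted as within the spread although it fell from 2.96 to 1.26 without MUTYH KO clone 8. So did ADRA1A, at 0.93 without that clone, and FOXF1, at 0.99 without OGG1 KO clone 1, which both lost their calls. The 567 values therefore do not show that single genes are stable when a clone is left out. The sign changed only for medians near 0 (replication in 13 settings, the vacuolar ATPase in 12, mitosis in 1) and for OGG1 in 3 settings. The count of genes called depended on filter and limit: 420 higher and 888 lower with no filter on low counts, 68 and 179 with at least 10 counts in every library, 1202 and 1762 beyond a log2 difference of 0.5, and 7 and 17 beyond 2. Leaving out each library in turn, or both of a genotype, gave 188 to 270 genes higher and 354 to 517 lower, since the direction then rests on 3 genotypes. For the log2 differences these settings are nearly the same fit within a genotype, so they do not show the influence of a single library. DESeq2 called 133 higher and 334 lower. Leaving out libraries also moved the medians of matrix genes (-0.73 to -0.55), mitochondrial carriers (0.064 to 0.13), ATF4 targets (0.15 without WT clone 11, up to 0.31) and the vacuolar ATPase (-0.047 to 0.028).

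Chosen after the data were seen, 3 further settings moved medians. Mitochondrial carriers were at 0.078 without mitochondrial genes in the totals, and at 0.077 with no filter on low counts. With transcripts of at least 2000 bases, GPI anchor synthesis was at -0.41, the vacuolar ATPase at -0.094, the proteasome at 0.089 and replication at -0.065. With the length and GC class subtracted, ER to Golgi transport was at -0.22, lysosome -0.33, vacuolar ATPase -0.088, matrix -0.51, integrins -0.20, respiratory chain 0.26, mitochondrial ribosome 0.17, mitochondrial carriers 0.051, proteasome 0.014, initiation factors 0.071 and replication -0.046. The causes of these moves were not tested. No paired analysis was possible because the untreated genotypes share no clone number, so clones were paired by genotype alone, which was a covariate of the fit. Without it, 134 genes were called higher and 281 lower. With 1 clone per genotype on each side, clone and side differences cannot be separated within a genotype.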
